A study of Equus caballus with 6 samples.

Results

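The mature Mongolian horse testis held 83 assembled loci that had at least 5 CPM in every library after sexual maturation (ASM) and at most 3 counts in every library before it (BSM). An assembled locus is a stretch of transcript that the authors' assembly added to the Ensembl gene annotation, and it carries a numbered identifier in place of an Ensembl identifier. CPM is the count of a locus per 1000000 counts of its library. The 83 loci were chosen by these limits out of 31733 assembled loci, among 58724 loci in all, and they are called ASM-on loci here. The name stands for the limits and not for silence before maturity, since 81 of the 83 loci had at least 1 count in a BSM library. No horse was sampled at both stages.

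Testis tissue from 6 Mongolian horses was analyzed by RNA-Seq of poly(A) RNA, with 1 library per horse. The BSM group was 3 sexually immature colts aged 11 to 13 months, and the ASM group was 3 sexually mature stallions aged 3 to 4 years. All 6 were healthy horses gelded for the study. The ASM columns of the tables could not be tied to single sample labels, so ASM1, ASM2 and ASM3 name columns, in no order of animals.

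Spermatogenesis starts at puberty, when germ cells enter meiosis and spermatids accumulate in the seminiferous tubules. Meiotic and haploid germ cells are known for transcribing a large part of the genome, including long noncoding RNAs that other tissues hardly make. An annotation built without deep testis data therefore often lacks testis transcripts, and an assembly from testis reads adds them as numbered loci. In whole tissue, fewer cells of a type and less RNA per cell cannot be told apart. The tables give no position, strand, sequence or product for the assembled loci, so whether they code for protein, or lie beside or antisense to known genes, was not analysed here.

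The libraries held between 14015484 and 19721986 counts on loci, so that 3 counts stood for between 0.152 and 0.214 CPM, which covers counting error only. The limit of 5 CPM corresponded to between 86 and 99 counts in an ASM library. No entry of the RefSeq horse gene list used here carried these identifiers. Gene symbols were therefore not paired with them, and the labelled tissue was not checked against cell type markers.

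The limits were met by 0.262% of all assembled loci. Of the 2936 assembled loci with at least 5 CPM in each ASM library, the 83 ASM-on loci were 2.83%. Of the 10534 Ensembl genes with at least 5 CPM in each ASM library, 7 genes, or 0.0665%, met the same limits. These shares were not matched by level. The median of the mean ASM CPM was 13.6 for the 2936 assembled loci and 35.0 for the 10534 genes. In the opposite direction, with at most 3 counts in each ASM library and at least 5 CPM in each BSM library, 2 of 1958 assembled loci (0.102%) and 1 of 11097 Ensembl genes (0.00901%) remained. These values chose the loci and were not tested. A limit of 3 counts stood for 0.152 to 0.174 CPM in the ASM libraries and 0.189 to 0.214 CPM in the BSM libraries. It was thus stricter in the opposite direction. The excess of ASM-on loci over loci with the opposite pattern depended on the limits and libraries. It was 626 against 40 at 2 CPM in the active stage and 540 against 17 at 10 counts in the silent stage. It was 1965 against 252 at 1 FPKM in place of 5 CPM, and 294 against 28 without BSM2. A silent limit of 0.2 CPM gave 64 against 2, and 10 CPM in the active stage gave 9 against 1. The ratio was larger than at the limits used with TMM library sizes (118 against 1) and without BSM3 (123 against 2).

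No gap in the BSM counts separated the ASM-on loci from the other assembled loci. Among assembled loci with at least 5 CPM in each ASM library, the highest BSM count was 0 for 2 loci, 1 for 6, 2 for 30, 3 for 45 and 4 for 52. It lay between 4 and 10 for 457 loci (15.6%), between 11 and 30 for 655 (22.3%), between 31 and 100 for 571 (19.4%) and above 100 for 1170 (39.9%). Of the Ensembl genes, 9688 (92.0%) had more than 100 counts in a BSM library.

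**Figure D1:**
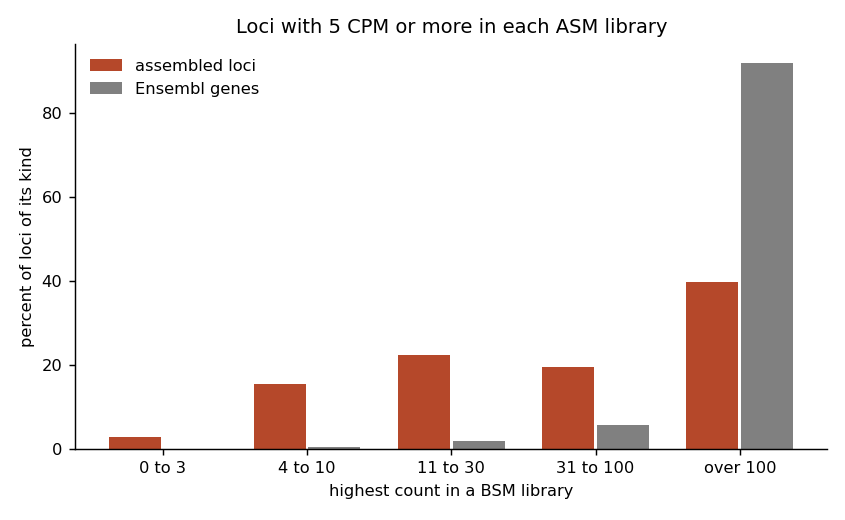
Loci with at least 5 CPM in each ASM library, split by their highest count in a BSM library (horizontal axis, classes of counts) and given as a percentage of the assembled loci (red, 2936 loci) or Ensembl genes (grey, 10534 genes). The ASM-on loci are the red bar at 0 to 3 counts (2.83%), next to a larger class of 457 loci at 4 to 10 counts.

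In the BSM libraries, the ASM-on loci were close to the detection limit. A count was found for 46 of the 83 loci in BSM1, for 72 in BSM2 and for 63 in BSM3. All 3 BSM libraries had a count for 29 loci, 2 libraries for 42 loci, 1 library for 10 loci and none for 2 loci. The summed BSM count of a locus lay between 0 and 8, with a median of 4.

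The BSM libraries were not alike. Summed over the 83 loci, BSM1 had 69 counts, BSM2 had 155 and BSM3 had 131, which are 4.41, 9.74 and 9.35 CPM. BSM1 was thus the lowest, with 3 counts for 3 loci, whereas BSM2 had 3 counts for 29 loci and BSM3 for 19. The limit of 3 counts bounds these sums. The 457 assembled loci just beyond it, with a highest BSM count of 4 to 10, had the same order, with 55.8 CPM in BSM1, 188 in BSM2 and 138 in BSM3. The remaining assembled loci with at least 5 CPM in each ASM library summed to 55582 CPM in BSM1, 61352 in BSM2 and 62031 in BSM3, so that BSM1 was again the lowest but by a smaller factor.

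**Figure D2:**
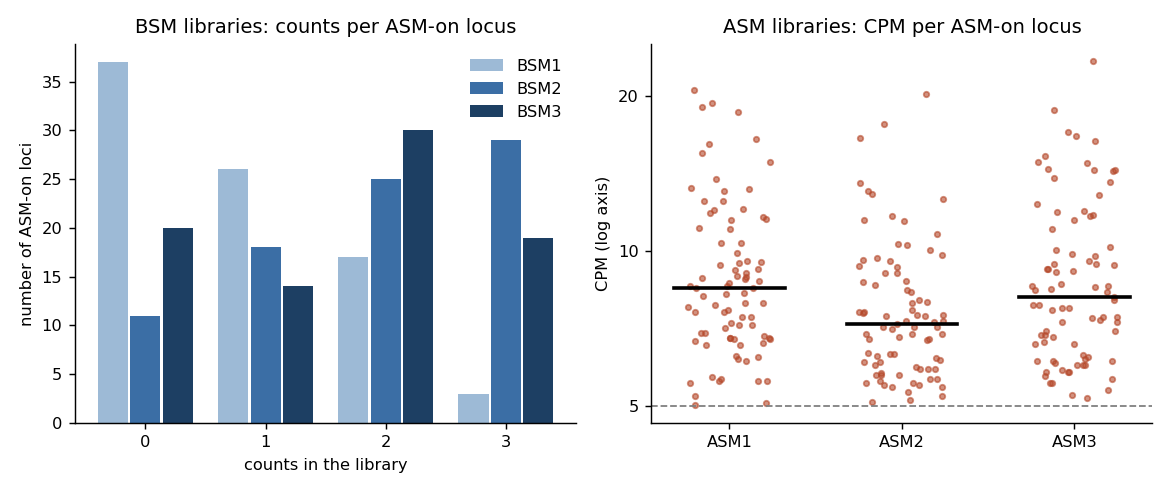
Left, number of ASM-on loci (vertical axis) with 0, 1, 2 or 3 counts in each BSM library, where 37 loci were at 0 in BSM1, 11 in BSM2 and 20 in BSM3. Right, CPM of each of the 83 loci in the 3 ASM libraries on a log axis, with a black line at the median (8.48, 7.20 and 8.14 CPM in ASM1, ASM2 and ASM3) and a dashed line at the limit of 5 CPM.

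In the ASM libraries, the 83 loci had between 89 and 401 counts each. Their median was 164 counts in ASM1, 142 in ASM2 and 140 in ASM3. Together they held 0.0771% of the counts of ASM1, 0.0662% of ASM2 and 0.0766% of ASM3, a mean of 0.0733% ± 0.00613 (SD, n = 3). Of the counts on assembled loci alone they held 0.645% ± 0.0550 (SD, n = 3). The loci were therefore a small part of the mature testis library, also among assembled loci.

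Novel24263 collected the most counts of the ASM-on loci, with 312 in ASM1, 398 in ASM2 and 401 in ASM3, against 2, 3 and 0 in BSM1, BSM2 and BSM3. Its mean was 19.9 ± 3.61 CPM (SD, n = 3). Novel08396 followed with 375, 326 and 281 counts in the ASM libraries and 1, 3 and 2 in the BSM libraries, a mean of 17.4 ± 1.70 CPM (SD, n = 3). The means of this pair lay closer together than the SD of the first.

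Novel22167 had 318, 348 and 246 counts in the ASM libraries and 1, 0 and 2 in the BSM libraries, a mean of 16.1 ± 1.69 CPM (SD, n = 3). Novel15592 had 397, 267 and 238 counts in the ASM libraries and 0 in each BSM library, a mean of 16.0 ± 3.95 CPM (SD, n = 3). It was 1 of the 2 loci without any BSM count. The other was Novel06623, with 241, 184 and 168 counts in the ASM libraries. In these loci the ASM libraries stood above the BSM libraries by construction of the limits.

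Novel17219 had 359, 198 and 322 counts in the ASM libraries against 2, 3 and 2 in the BSM libraries. Novel16890 had 255, 257 and 292 counts against 0, 3 and 1. Novel03140 had 367, 226 and 204 counts against 0, 3 and 3. Their means were 15.8 ± 4.97, 14.4 ± 2.24 and 14.1 ± 4.22 CPM (SD, n = 3 for each), so their order is not resolved. ASM2 was low for Novel17219 and ASM1 was high for Novel03140. Novel11962, the eighth by counts, was even across the stallions with 256, 248 and 254 counts, against 1, 2 and 3 in the colts. Of all ASM-on loci, 21 had a mean above 10 CPM, and the other 62 had a mean between 5.46 and 10 CPM.

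Levels between loci were compared as FPKM, fragments per kilobase of locus length per 1000000 counts, which divides the count by the length. The length of a locus was computed back from its count, its FPKM and the library total, and this implied length was a whole number of bases for each of the 83 loci. The mean ASM FPKM lay between 1.27 and 36.1, with a median of 8.49. It exceeded 10 for 31 loci and was under 2 for 5 loci. Of the 31733 assembled loci, 10302 had a mean ASM FPKM above 1, and the ASM-on loci took ranks 350 to 8794 among all assembled loci by this value. The most abundant ASM-on locus was thus at rank 350 of the 31733 assembled loci, with 36.1 FPKM where the highest of them had 1498.

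Novel03140 had the highest mean, 36.1 ± 10.8 FPKM (SD, n = 3), with a length of 390 bp. Novel29224, of 392 bp, had 30.1 ± 6.34 FPKM (SD, n = 3) from 229, 183 and 245 counts in the ASM libraries, against 3, 3 and 2 in the BSM libraries. Novel17219, of 545 bp, had 28.9 ± 9.11 FPKM (SD, n = 3). These means differed by less than the SD of the first. Novel11962, of 557 bp, had 24.3 ± 2.02 FPKM (SD, n = 3).

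The next loci by FPKM were short. Novel28211 (304 bp) had 22.3 ± 3.19 FPKM, Novel23695 (335 bp) had 22.1 ± 3.96 FPKM and Novel08847 (286 bp) had 22.1 ± 3.50 FPKM (SD, n = 3 for each), and they were the 3 shortest ASM-on loci. Their values were within the spread between stallions of each other. They had between 100 and 159 counts in an ASM library and at most 2 in a BSM library. Novel12026 (483 bp) had 21.1 ± 9.45 FPKM (SD, n = 3), with 299 counts in ASM1 but 151 in ASM2 and 128 in ASM3. Only 3 loci, Novel03140, Novel17219 and Novel11962, were among the first 8 both by CPM and by FPKM.

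The longest ASM-on loci were among those with the lowest levels per length. Novel02644, of 7212 bp, had 1.27 ± 0.682 FPKM (SD, n = 3) from 129, 118 and 255 counts in ASM1, ASM2 and ASM3, with 2, 2 and 3 in the BSM libraries. Novel13984, of 5193 bp, had 1.27 ± 0.1995 FPKM (SD, n = 3) from 148, 110 and 113 counts, with 0, 1 and 2 in BSM. Novel03844, of 4515 bp, had 1.62 ± 0.341 FPKM (SD, n = 3) from 108, 169 and 133 counts, with 2, 1 and 1 in BSM. The mean CPM of the 83 loci spanned a 3.64-fold range and the length a 25.2-fold range, so FPKM mostly mirrored length. The 40 loci under 1 kb had a median of 11.7 FPKM, the 28 loci of 1 to 2 kb had 7.75 and the 15 loci of 2 kb or more had 2.75. Their median CPM was 7.54, 8.99 and 7.80.

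**Figure D3:**
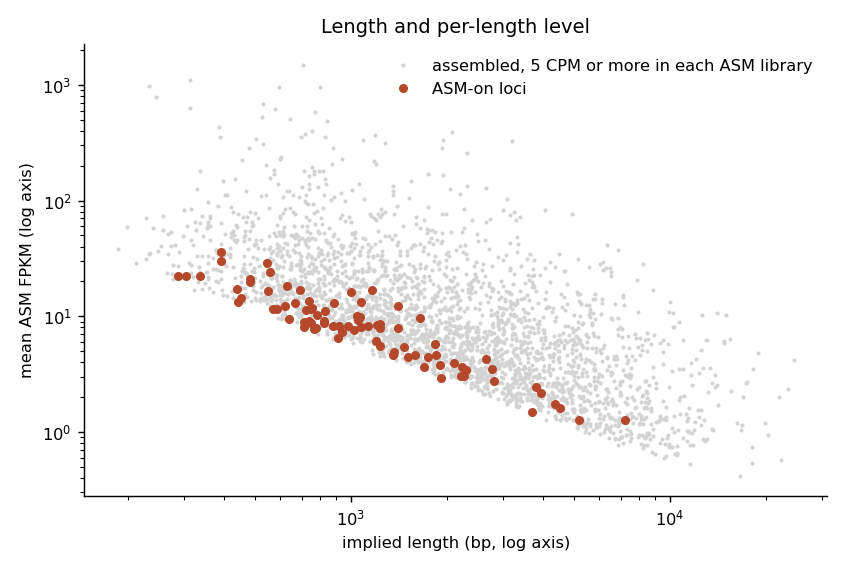
Implied length (horizontal axis, bp, log scale) and mean FPKM of the 3 ASM libraries (vertical axis, log scale) for the 83 ASM-on loci (red) and all 2936 assembled loci with at least 5 CPM in each ASM library (grey). The limit of 5 CPM sets the lower edge of the points. The ASM-on loci, with means of 5.46 to 19.9 CPM, run from 36.1 FPKM at 390 bp to 1.27 FPKM at 7212 bp.

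The ASM-on loci had a median length of 1025 bp, with quartiles of 712 and 1672 bp. Under 1 kb were 48.2% of them, and 7 loci (8.43%) exceeded 3 kb. The median over all assembled loci was 1162 bp, and over the 2936 assembled loci with at least 5 CPM in each ASM library it was 1886 bp, with 32.3% above 3 kb. The comparison was repeated over the 1916 of these loci whose mean ASM CPM was no higher than that of Novel24263, called assembled loci of the same level range here. Their median length was 1828 bp. Within this range the median length was larger in each higher class of the BSM count, with 1025 bp at 0 to 3 counts, 1133 bp at 4 to 10, 1446 bp at 11 to 30, 2101 bp at 31 to 100 and 3205 bp above 100. The median CPM of these classes was 7.995, 9.12, 10.6, 9.88 and 10.5 in the same order. The classes were cut on raw counts, and longer loci collect more counts, so class and length are not independent. Loci are not replicates, so no test was made, and what the lengths stem from was not tested.

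The ratio of ASM to BSM was computed from the summed counts and library totals of each stage. The limits themselves favour a high ratio, so the ratios and their intervals describe the chosen loci and test nothing. The median ratio over the 83 loci was 92.1, with the 2 loci without BSM counts at their lower bound. The lowest was 38.5 for Novel16537 (95% exact interval 18.5 to 96.6), with 118, 120 and 95 counts in ASM and 2, 2 and 3 in BSM. Among the 81 loci with a BSM count, the highest was 301 for Novel15008 (95% exact interval 53.7 to 11930), which rests on a single BSM count. Against a floor of 3 counts over the summed BSM libraries, Novel15592 was at least 243-fold higher in ASM and Novel06623 at least 160-fold higher, and neither can be ranked against the loci with a BSM count. The intervals cover counting error only, and they were wide because the BSM counts were few. The highest lower limit was 84.0, for Novel22167, and the lowest upper limit was 96.6, so the intervals of the 81 loci with a BSM count all overlapped and their order is not resolved at this depth.

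**Figure D4:**
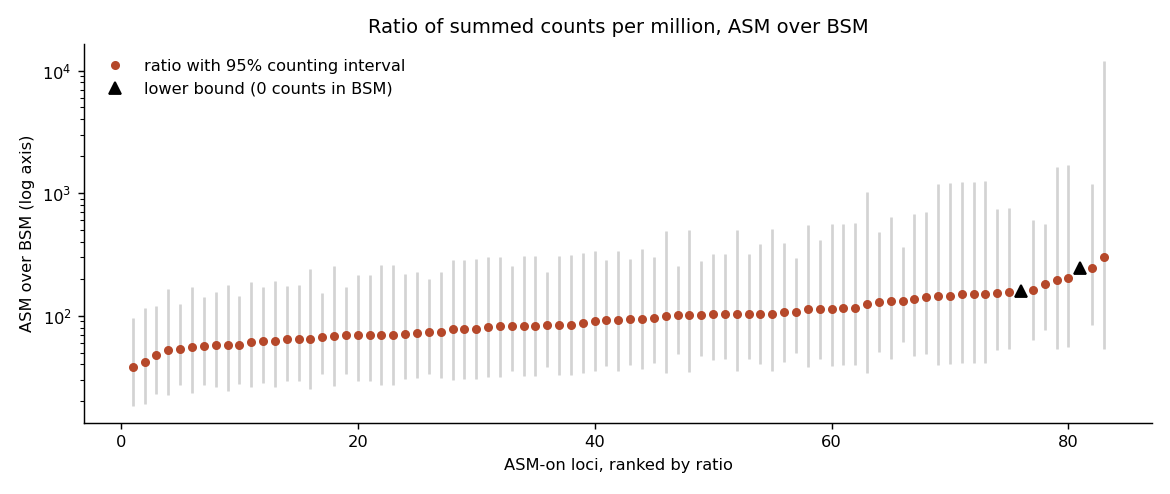
Ratio of ASM to BSM in CPM over the summed libraries (vertical axis, log scale), for the 83 ASM-on loci in the order of the ratio or, where no BSM count was found, of the lower bound (horizontal axis). Points are ratios with 95% exact counting intervals and triangles are the lower bounds of the 2 loci without BSM counts. The points run from 38.5 to 301 for the 81 loci with a BSM count.

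A ratio this high was not particular to loci with at most 3 BSM counts. Among the 2936 assembled loci, 439 (15.0%) had a ratio of at least 38.5, and 356 of them missed the limits because a BSM library had more than 3 counts. The median level of these 356 loci was 20.2 FPKM, against 8.49 FPKM for the ASM-on loci. Their median length was 937 bp. Of the Ensembl genes with at least 5 CPM in each ASM library, 188 (1.78%) had a ratio this high.

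Differences among the stallions were described within the minimum of 5 CPM in each ASM library, which was part of the choice of the loci. This minimum leaves out loci that were low in any stallion and so bounds the differences, but it applied to every locus compared. A chi-square test compared the 3 ASM counts of a locus with the library totals, with Benjamini-Hochberg adjustment over the 13470 loci of any kind with at least 5 CPM in each ASM library. It sets the spread between 3 animals against counting error alone, which most loci of any kind exceeded, so a locus that passes is no finding by itself. The counts differed beyond counting error (adjusted p under 0.05) in 52 of the 83 ASM-on loci, or 62.7%. Over all loci tested the share was 66.5%, and over the assembled loci of the same level range it was 61.6%, so the ASM-on loci were near the background. Without ASM1 or without ASM2 the count was 34 of the 83 loci (41.0%), where all loci gave 45.8% in both cases. Without ASM3 it was 40 loci (48.2%), where all loci gave 46.9%.

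The minimum in each library also limits how far the values of a locus can lie apart. The ratio of the highest to the lowest ASM CPM of a locus lay between 1.06 and 2.48, with a median of 1.42, and the median over the assembled loci of the same level range was 1.38. A ratio of at least 2 was found for 8 ASM-on loci, or 9.64%, against 7.83% in that range and 3.69% of all loci tested. Of these 8 loci, 4 were highest in ASM1 and 4 in ASM3. Without ASM1 there were 4 such loci (4.82%, against 3.39% in the same level range) and without ASM2 there were 5 (6.02% against 3.44%). Without ASM3 there were 2, or 2.41% against 3.39%, so the order turned.

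Novel02644, the longest locus, varied most, from 5.98 CPM in ASM2 and 6.67 in ASM1 to 14.8 in ASM3. Novel10936, of 2761 bp, had the same order, with 164, 120 and 246 counts in ASM1, ASM2 and ASM3. Novel11367 and Novel14092 had another order, from 222 counts in ASM1 to 156 in ASM2 and 90 in ASM3 for the first, and from 288 to 191 and 118 for the second. High values thus fell in different stallions for different loci.

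Novel13979 varied least, with 11.1, 11.7 and 11.7 CPM in ASM1, ASM2 and ASM3, a mean of 11.5 ± 0.355 (SD, n = 3) at 883 bp. Novel18436 had 110, 105 and 98 counts, Novel24946 had 131, 124 and 113, and Novel16537 had 118, 120 and 95. The most and the least variable loci were chosen for this spread, so no test is given for them.

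ASM2 was most often the lowest of the stallions. The ASM-on loci summed to 771 CPM in ASM1, 662 in ASM2 and 766 in ASM3. ASM2 was the lowest library for 49 of the 83 loci (59.0%) and the highest for 12 (14.5%), whereas ASM1 was the highest for 37 and ASM3 for 34. In the assembled loci of the same level range, ASM2 was the lowest for 35.6% and the highest for 27.9%. Across the classes of the BSM count, the share of loci with their lowest value in ASM2 was 59.0% at 0 to 3 counts, 48.6% at 4 to 10, 37.4% at 11 to 30, 29.3% at 31 to 100 and 25.5% above 100. The share with the lowest value in ASM1 ran the other way, from 19.3% to 49.2%. This is a description of 3 animals, and what it stems from was not tested.

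**Figure D5:**
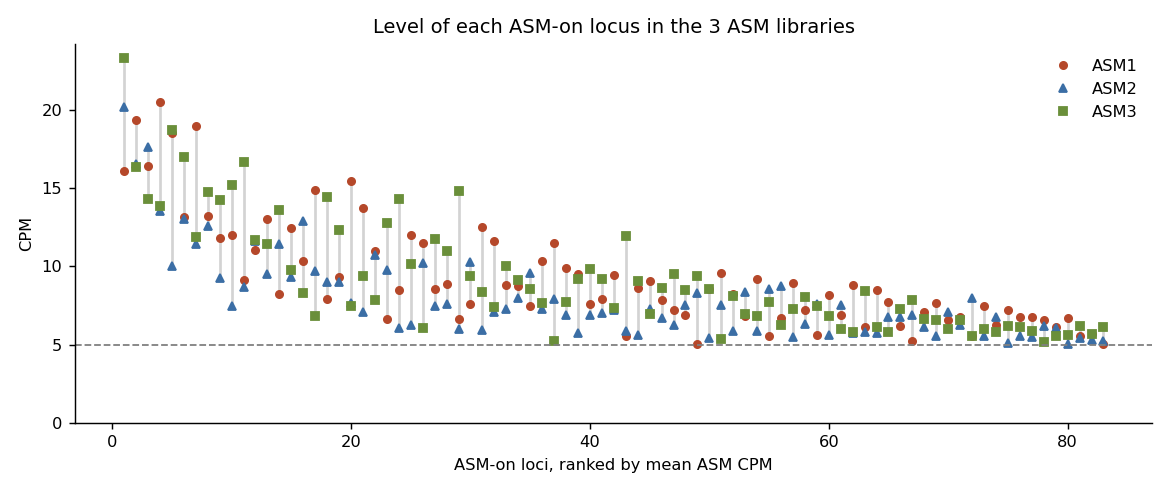
CPM (vertical axis) of each ASM-on locus in ASM1 (circles), ASM2 (triangles) and ASM3 (squares), ranked by mean ASM CPM (horizontal axis), with grey lines from the lowest to the highest library and a dashed line at the limit of 5 CPM. The triangles of ASM2 are at the lower end of the line for 49 of the 83 loci.

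Applying the limits without 1 library showed how the choice rested on single horses. Without BSM1, 89 loci met the remaining limits, and 83 of them (93.3%) also had at most 3 counts in BSM1. Without BSM3, 123 loci did, and 67.5% also met the limit in BSM3. Without BSM2 there were 294 loci, and 28.2% also met the limit in BSM2, where the median was 6 counts and the highest was 24. BSM2 thus decided membership more often than the other BSM libraries. Of the 457 loci with a highest BSM count of 4 to 10, 172 exceeded 3 counts in BSM2 alone, 38 in BSM3 alone and 6 in BSM1 alone.

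For the mature horses, 114 loci met the limits without ASM1, of which 72.8% also had at least 5 CPM in ASM1. Without ASM2 there were 135 loci, with 61.5% at or above 5 CPM in ASM2. Without ASM3 there were 108 loci, with 76.9% at or above 5 CPM in ASM3. In the library left out, the lowest value was 0.155 CPM in ASM1, 0.254 in ASM2 and 0.116 in ASM3, so a few loci that were high in a pair of stallions were hardly found in the remaining one.

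Loci just inside and just outside the limits had close values. Novel20156 met the ASM limit most narrowly, with 5.01, 8.32 and 9.42 CPM in ASM1, ASM2 and ASM3, followed by Novel27810 and Novel29934 with lowest values of 5.07 CPM each. Novel27970, with a lowest value of 4.97 CPM, Novel13666 with 4.96 and Novel28925 with 4.92 missed it. Within the BSM limit, 66 assembled loci had their lowest ASM value between 4 and 5 CPM. On the BSM side, Novel16306 had 412, 219 and 335 counts in ASM and 0, 3 and 4 in BSM, Novel26121 had 319, 310 and 243 counts in ASM and 3, 4 and 3 in BSM, and Novel03805 had 270, 301 and 232 counts in ASM and 0, 4 and 3 in BSM. Each of these missed the limits by 1 count in 1 library.

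The 7 Ensembl genes that met the same limits had lengths between 63 and 1590 bp, with a median of 1083 bp, and a median of 10.2 FPKM in ASM. Their summed BSM counts lay between 2 and 7. ENSECAG00000021785, with a mean of 27.6 CPM, lay above every ASM-on locus in CPM, and ENSECAG00000027009, of 63 bp, lay below them in length and above them in level per length, at 156 FPKM. The other 5 genes lay within the range of the ASM-on loci in length, CPM and FPKM. The 2 assembled loci with the opposite pattern were long, with 5335 bp for Novel17779 and 6762 bp for Novel12508. Novel17779 had 115, 83 and 86 counts in the BSM libraries and 0, 2 and 2 in the ASM libraries. Novel12508 had 386, 269 and 162 counts in the BSM libraries and 2, 0 and 0 in the ASM libraries.

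The identifiers of the ASM-on loci were spread from 1860 to 30905 in a numbering that ran to 31733. No pair had consecutive numbers, and the closest pair were 5 numbers apart. What the numbering follows is not given in the sources used here. The 166 loci numbered directly before or after an ASM-on locus were described beside all assembled loci, with no test. At most 3 counts in each BSM library were found for 47.0% of these neighbours and for 25.2% of all assembled loci. A log2 ratio of ASM to BSM above 1, with 0.2 CPM added to each stage mean, was found for 63.9% of the neighbours and 40.5% of all assembled loci. At distances of 2, 5 and 50 numbers the first share was 40.4%, 29.3% and 33.7%, and the second was 47.6%, 53.0% and 48.2%. At a distance of 500 numbers they were 25.6% and 43.3%. The direct neighbours did not stand out in the ASM level itself, with at least 5 CPM in each ASM library for 9.64% of them and 9.25% of all assembled loci. The tables do not show whether several loci belong to a single transcript, so the ASM-on loci are not counted here as separate genes.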

How the data were processed

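The authors aligned clean paired-end reads with TopHat2 2.0.12 and Bowtie2 2.2.3 to the Ensembl horse genome, assembled further transcripts with Cufflinks and counted reads per locus with HTSeq 0.6.1. The deposited counts are raw whole numbers. The FPKM table was made by the authors from these counts, the locus lengths and the library totals. The kit was strand-specific, and the strand setting of the counting, the genome build and the treatment of overlapping loci are not given in the sources used here.

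Loci were selected with Python 3.11.15 on CPM from column totals. Members and comparisons were chosen with earlier results of these data known. Lengths were recovered as count × 1e9 / (total × FPKM) and were whole (within 0.001) for 100% of values. No test was made between stages, because the limits used that contrast. Differences among ASM libraries were compared with counting error by chi-square with scipy 1.17.1, with 2 degrees of freedom, after a check on simulated data. Ratios have Clopper-Pearson 95% intervals. TMM factors came from edgeR 4.0.16.

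Loci were named by rule: the first 8 by CPM and by FPKM, the 3 longest and 3 shortest, the 4 most and 4 least variable in ASM, 3 loci just inside the ASM limit, and 3 just outside each limit. Novel06623, Novel15008, ENSECAG00000021785, ENSECAG00000027009 and the 2 assembled loci with the opposite pattern were added after their values were seen. None of the 39335 entries of a RefSeq horse gene table carry an identifier of these tables, so symbols, positions and the planned marker check are not used here. Other settings for the limits, the scaling and single libraries were tried.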

Additional observations from a re-analysis of the deposited data

How the results depend on the processing

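The number of ASM-on loci depended on both limits. It was 2 with 0 BSM counts allowed, 8 with 1 count, 540 with 10 counts, 626 with 2 CPM in ASM, 9 with 10 CPM, and 1965 with 1 FPKM in place of 5 CPM. It was 64 with a BSM limit of 0.2 CPM and 118 with TMM library sizes, which raise ASM over BSM by 0.35 on the log2 scale. The median length of 1025 bp became 1343 bp with 0 BSM counts and 624 bp with 1 FPKM, and lay between 958 and 1076 bp with 10 BSM counts, 2 CPM, 10 CPM or TMM. It was not computed for 1 count or 0.2 CPM. The median CPM followed the limits, with 13.2 at 0 BSM counts, 9.13 at 10 counts, 3.93 at 2 CPM, 15.8 at 10 CPM and 1.87 at 1 FPKM. The share of ASM counts, 0.0733%, was 0.00265%, 0.567%, 0.292%, 0.0139% and 0.491% in the same order, and 0.0937% with TMM. Loci with a neighbouring number in the list were 4.81% at 10 counts, 10.2% at 2 CPM and 25.1% at 1 FPKM, against 0% at the limits used. A wider limit admits more loci by construction.

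With each library left out in turn, the number of loci ranged from 89 to 294 (135 without ASM2, 294 without BSM2), the median length from 957 to 1075 bp, the median CPM from 7.10 (without ASM2) to 8.55, the share of ASM counts from 0.0795% to 0.297%, the loci with neighbouring numbers from 0% to 4.08%, and the loci that differed among stallions from 34 to 40. Without BSM2 the Ensembl genes numbered 18 and the loci with the opposite pattern 28, and without ASM2 they numbered 13 and 5. TMM gave 55 loci that differed among stallions (66.3%, against 66.7% of all loci tested), an adjusted p under 0.01 gave 45 (54.2% against 55.8%), and adjustment over loci with at least 1 CPM gave 52 (62.7% against 55.9%). No paired analysis was possible because the colts and stallions were different horses and the result between stages comes from no test.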

Other observations

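Some loci met the BSM limit of 3 counts but were high in only part of the stallions. These loci were picked after the values were seen, and no test was made. At least 5 CPM in 1 ASM library and less than 0.5 CPM in both others was found for 23 assembled loci and 1 Ensembl gene. The 23 loci were out of 7982 assembled loci within the BSM limit. The number of Ensembl genes within that limit is not given here, so these counts do not compare assembled loci with genes. Of the assembled loci, 8 were high in ASM1, 10 in ASM2 and 5 in ASM3. Novel02400, of 226 bp, had 665 counts in ASM2 and 0 in ASM1 and ASM3, with 0, 0 and 1 in the BSM libraries. Its level in ASM2 was 149 FPKM, above that of every ASM-on locus. Novel29231 had 453 counts in ASM2 and 0 in both other stallions, and the locus with the next number, Novel29232, had 320 counts in ASM2, 2 in ASM1 and 0 in ASM3. Novel25376 had 196 counts in ASM1 and Novel10211 had 184 in ASM3, each with 0 counts in the other 5 libraries. The gene high in 1 stallion, ENSECAG00000023114, had 139 counts in ASM1 and 0 in ASM2 and ASM3, with 2, 1 and 2 in the BSM libraries.

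The reverse pattern, at least 5 CPM in a pair of ASM libraries and under 1 CPM in the remaining one, was found for 6 of the 7982 assembled loci. Novel21472, of 2500 bp, had 326 counts in ASM1 and 159 in ASM2 but 3 in ASM3, with 1, 0 and 0 in the BSM libraries. Novel28608 had 159 and 114 counts in ASM1 and ASM2, 2 in ASM3 and 0 in each BSM library. Novel06250 had 179 and 219 counts in ASM1 and ASM3 but 5 in ASM2, with 1 in each BSM library. Novel01833 had 210 and 165 counts in ASM2 and ASM3 but 3 in ASM1, with 0, 1 and 3 in the BSM libraries. With 1 library per horse, a difference between horses and a difference between libraries cannot be told apart.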
